A study of Homo sapiens with 28 samples.

Results

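This report describes how gene expression in CHL-1 cells kept in vehicle differed between 24 h and 4 h. CHL-1 is an established human melanoma cell line, and the vehicle was DMSO, the solvent in which the study's drug was given. The members are the 8 arrays whose titles name DMSO vehicle, 4 at 4 h and 4 at 24 h, of 28 arrays in all. The other 20 arrays came from CHL-1 cells that received BAY1238097, an inhibitor of the BET bromodomain proteins, at 75 nM or 468 nM for 4 h or 24 h, with 5 arrays per dose and time. All groups grew in DMEM with fetal calf serum and were plated on the day before treatment began. Time since plating and time since DMSO was added therefore ran together and cannot be told apart. Whether the 4 arrays of each group stand for 4 cultures is not said in the labels. The p-values below therefore speak only of the spread between arrays, which may be technical.

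Cells that have just been plated attach, spread and build tension through actin, and serum and attachment both act on transcription. The Hippo pathway kinases hold the co-activator YAP out of the nucleus, and YAP with the TEAD factors drives genes of growth and adhesion. MRTF is held by free actin monomers and with SRF drives cytoskeletal genes. E2F factors drive the genes that carry cells from G1 into S phase, and a growing culture slows as cells become crowded and medium is used up.

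Each value below is a log2 array intensity, so a difference of 1 is a 2-fold change, and levels are compared within a gene only. Array medians over all probe sets lay between 2.44 and 2.49, and 8210 to 8575 genes exceeded log2 5 on each vehicle array. Correlations between vehicle arrays ran from 0.952 to 0.977, and no array stood apart from its group. The first principal component of the 8 arrays held 31.7% of the variance. All 4 h arrays lay below 0 on it and all 24 h arrays above, with 4 h replicate 4 nearest to the 24 h arrays at -3.05. Replicate numbers follow title codes that the labels do not explain, and the main fit did not pair arrays by them. SOX10, the lineage factor of neural crest derived cells, was high at 9.61 ± 0.06 (SD, n = 4) at 4 h and 9.48 ± 0.21 at 24 h. MITF, the melanocyte master regulator, was dim at 2.67 ± 0.27 and 2.86 ± 0.24. Markers of other cell types were mostly too dim to test: 1 of 10 keratinocyte, 1 of 10 fibroblast, 1 of 10 leukocyte and 0 of 10 endothelial markers passed the filter. DSP, FBLN1 and CD68, the members that did, were not called.

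At 24 h, 486 of 9285 genes tested had changed (5.23% called, limma adjusted p below 0.05), 244 higher (2.63%) and 242 lower (2.61%). Changes were small for most: the median called rise was 0.59 and the median called fall -0.56, and 25 genes rose and 25 fell by 2-fold or more. Among called genes without overlap between the arrays and with a mean above 5 in at least 1 vehicle group, the largest falls were those of TNFRSF12A, NFATC2, FOXF1, GPR137C and RDH10. The 15 largest rises under the same limits took in GDPD1, RFTN2, DDIT4, PLD1, IRF2 and 4 small nucleolar RNAs. Called changes within this range of size but outside the limits were those of DKK1 (log2 change -1.56) and KCNJ8 (1.26), whose arrays overlapped, and of the dimmer FLJ42627 (-1.24) and YPEL2 (1.25). These calls were lost on leaving out any 1 of 3 arrays for DKK1, of 4 for KCNJ8, of 5 for FLJ42627 and of 2 for YPEL2, where the largest limma adjusted p was 0.0819, 0.0966, 0.0809 and 0.0599 in that order. In 420 of the 486 the arrays of both times did not overlap, against 1220 of all 9285 (13.1%).

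How many genes passed depended on single arrays. The count fell to 201 without 4 h replicate 1, 247 without 4 h replicate 2, 201 without 4 h replicate 3, 217 without 24 h replicate 2 and 217 without 24 h replicate 4. Of the 486, 122 were called whichever array was left out, 48 higher and 74 lower. The even split of rises and falls also depended on scaling: when arrays were levelled on 9 reference genes, every gene moved up, the median over all genes to 0.14, and the calls became 757 higher and 76 lower (90.9% higher, against 50.2%). Directions below are relative to the deposited scale, on which the 9 reference genes themselves had a median of -0.17 and 7 negative signs. Of 68 called genes among those chosen for description, 36 missed the threshold when the 8 vehicle arrays were fitted alone, 39 when dim genes were kept and 14, all of them falls, on the reference gene scale.

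**Figure D1:**
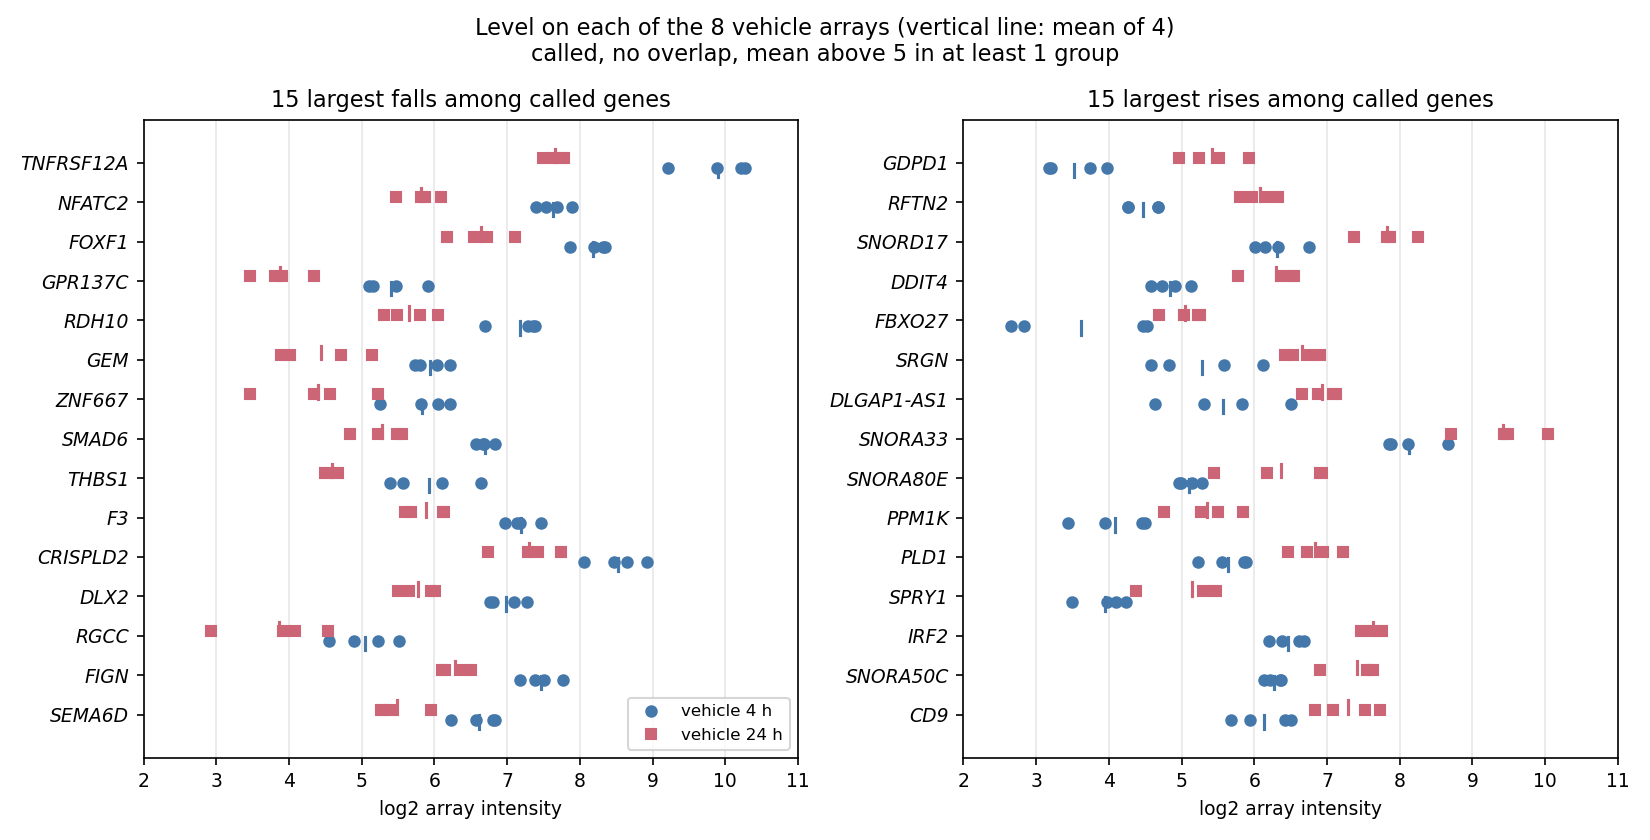
Log2 array intensity (horizontal axes) of the 15 largest falls (left) and 15 largest rises (right) on each vehicle array, among called genes without overlap and with a mean above 5 in at least 1 vehicle group; circles are the 4 h arrays, squares the 24 h arrays, and vertical lines the group means. The absence of overlap is how the genes were chosen; TNFRSF12A sits at 9.21 to 10.27 at 4 h and 7.49 to 7.78 at 24 h.

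TNFRSF12A, the receptor for the cytokine TWEAK, had the largest fall. It read 9.89, 10.22, 9.21 and 10.27 at 4 h and 7.63, 7.78, 7.73 and 7.49 at 24 h. Every 24 h array lay more than 1 log2 unit below every 4 h array. The mean was 4.72-fold lower at 24 h (log2 change -2.24, SE 0.21, adjusted p = 6.17e-07).

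NFATC2, a calcium-regulated transcription factor, read 7.89, 7.69, 7.4 and 7.53 at 4 h against 6.09, 5.87, 5.82 and 5.47 at 24 h. The groups were well separated, and the level was 3.52-fold lower (log2 change -1.82, SE 0.24, adjusted p = 6.98e-05). FOXF1, a forkhead factor of mesenchyme, read 8.35, 8.19, 8.32 and 7.87 and then 6.17, 6.72, 7.11 and 6.54. It was 2.92-fold lower without overlap (log2 change -1.54, SE 0.24, adjusted p = 4.85e-04). RDH10, which oxidises retinol on the way to retinoic acid, read 7.29, 7.35, 6.7 and 7.38 and then 6.05, 5.3, 5.48 and 5.8. Its 4 h replicate 3 was the lowest of that group yet above every 24 h array, and the fall was 2.87-fold (log2 change -1.52, SE 0.15, adjusted p = 1.06e-06).

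Other falls of more than 2-fold followed. THBS1, the matrix protein thrombospondin 1, read 6.64, 5.39, 6.1 and 5.57 at 4 h and 4.66, 4.5, 4.67 and 4.51 at 24 h. The 4 h arrays were scattered and the 24 h arrays tight, and the fall was 2.54-fold (log2 change -1.34, SE 0.26, adjusted p = 0.00409). CRISPLD2, a secreted protein, had a log2 change of -1.22 (adjusted p = 0.00768), and SEMA6D, a transmembrane semaphorin, one of -1.12 (adjusted p = 0.00992). GPR137C, a multipass membrane protein, fell by 1.53 on that scale (adjusted p = 4.85e-04). Of the remaining large falls, DLX2, a homeobox factor, had a log2 change of -1.2 (adjusted p = 0.00218), and FIGN, a microtubule-severing ATPase, one of -1.18 (adjusted p = 9.54e-04). All of these kept their calls without any 1 array.

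Further falls of this size did not keep them. GEM, a small GTPase that restrains calcium channels, fell by 1.51 (adjusted p = 0.0179), but missed the threshold without 4 h replicate 2 (0.0532), 24 h replicate 3 (0.0564) or 24 h replicate 4 (0.0636). ZNF667, a zinc finger gene, fell by 1.43 (adjusted p = 0.0173) and missed it without 4 h replicate 1 (0.0555) or 24 h replicate 4 (0.0765). RGCC, a cell cycle regulator, fell by 1.18 (adjusted p = 0.025) and missed it without 4 h replicates 1, 3 or 4 or 24 h replicate 4, with adjusted p from 0.0509 to 0.104.

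Target genes of YAP and TEAD were called in the downward direction only. Of 14 tested, 4 were called lower (28.6%, against 2.61% of all genes) and 0 higher. A negative sign was seen in 13, and the list's median was -0.31 against 0 over all genes tested. F3, the tissue factor that starts coagulation, read 7.18, 7.47, 6.97 and 7.14 at 4 h and 6.12, 6.13, 5.59 and 5.68 at 24 h. The groups were far apart, with a 2.48-fold fall (log2 change -1.31, SE 0.24, adjusted p = 0.00242). CCN1, a secreted matricellular protein, read 6.76, 6.5, 6.86 and 6.47 and then 5.83, 5.8, 5.9 and 5.38. Its arrays did not overlap either, and it was 1.89-fold lower (log2 change -0.92, SE 0.18, adjusted p = 0.00394). It was also the 1 member called among 21 immediate early and AP-1 genes (4.76%, against 5.23% of all genes), a list with a median of -0.22.

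LATS2 is a Hippo kinase and itself a target in the feedback of the pathway. It read 6.72, 6.81, 6.75 and 6.71 at 4 h, a very narrow range, and 6.41, 5.76, 5.81 and 6.01 at 24 h (log2 change -0.75, SE 0.16, adjusted p = 0.0091). AXL, a receptor kinase of the undifferentiated melanoma state, read 8.72, 8.54, 8.38 and 8.33 and then 7.92, 7.9, 7.3 and 7.96 (log2 change -0.72, SE 0.16, adjusted p = 0.0119). Without 4 h replicate 1 the adjusted p of AXL was 0.0507. CCN2, a widely used YAP readout, was too dim to test at 3.37 ± 0.63 and 2.44 ± 0.37. NR4A3, an early response receptor, read 4.86 to 5.42 at 4 h and 3.36 to 4.15 at 24 h but did not pass (log2 change -1.54, adjusted p = 0.0649).

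Cytoskeletal targets of SRF and MRTF had 2 of 13 members called lower (15.4%, against 2.61% of all genes), 0 higher and a median of -0.32. CNN2, the actin-binding protein calponin 2, read 10.43, 10.57, 10.2 and 10.31 at 4 h and 9.88, 9.78, 9.84 and 9.71 at 24 h. Both groups were tight and apart, and the fall was 1.49-fold (log2 change -0.58, SE 0.09, adjusted p = 4.30e-04). ZYX, the focal adhesion protein zyxin, had a log2 change of -0.61 (adjusted p = 0.0298). Its call was lost without 4 h replicates 1, 2 or 4 or 24 h replicates 2, 3 or 4 (adjusted p 0.0564 to 0.0816) and on the reference gene scale (0.0694).

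TGF-beta and BMP targets had 2 of 10 members called lower (20%, against 2.61% of all genes), 0 higher and a median of -0.43. SMAD6, an inhibitor of BMP signalling that BMP itself induces, read 6.68, 6.84, 6.57 and 6.67 at 4 h and 5.56, 5.22, 5.49 and 4.84 at 24 h. The groups did not meet, and the fall was 2.66-fold (log2 change -1.41, SE 0.23, adjusted p = 9.54e-04). PMEPA1, an inhibitor of TGF-beta signalling, fell by 1.02 (adjusted p = 0.0138), with an adjusted p of 0.0557 without 24 h replicate 4. Among 11 genes of the undifferentiated melanoma state, AXL and NGFR, the neurotrophin receptor of neural crest cells, were called lower and 0 higher (median -0.3). That is 18.2% called lower, against 2.61% of all genes. NGFR fell by 0.88 (adjusted p = 0.0166), and without 4 h replicate 3 its adjusted p was 0.0687. Of 8 melanocyte lineage genes 0 were called. RAB38, a melanosome trafficking GTPase, came nearest at 6.12 ± 0.19 against 6.77 ± 0.16 (log2 change 0.65, adjusted p = 0.0524).

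**Figure D2:**
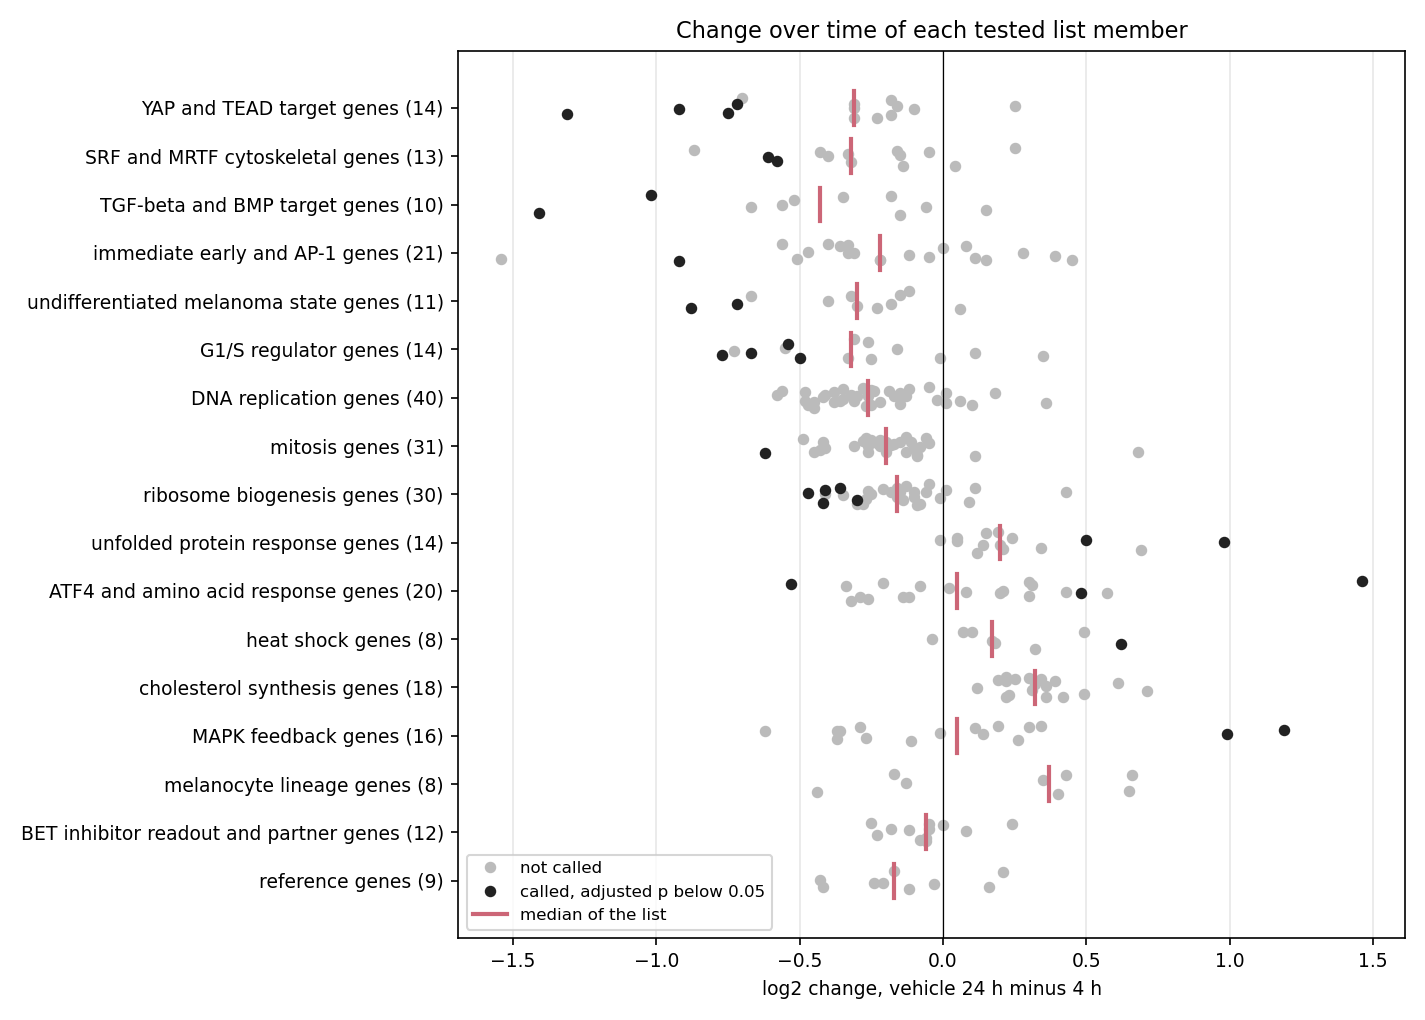
Log2 change from 4 h to 24 h in vehicle (horizontal axis) of every tested member of 17 gene lists, with the number tested in parentheses; dark points are called genes, grey points are not, and red bars are list medians. YAP and TEAD targets and G1/S regulators each have 4 called falls and 0 called rises, while 18 of 18 cholesterol synthesis genes lie above 0 with 0 called.

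Some of the genes that drive entry into S phase fell. Of 14 G1/S regulators, 4 were called lower (28.6%, against 2.61% of all genes) and 0 higher, with a median of -0.32. E2F8, an atypical E2F that represses E2F targets and is itself one, read 8.38, 8.09, 8.31 and 8.09 at 4 h and 7.34, 7.75, 7.32 and 7.38 at 24 h. All 24 h arrays were below the 4 h arrays, with replicate 2 the highest of them (log2 change -0.77, SE 0.17, adjusted p = 0.0091). CDC25A, the phosphatase that activates CDK2, read 8.34, 8.54, 8.3 and 8.42 and then 7.89, 7.84, 7.86 and 7.34. The groups were again apart, with a 1.59-fold fall (log2 change -0.67, SE 0.12, adjusted p = 0.00171; 0.058 with the vehicle arrays fitted alone). E2F3, an activating E2F, went from 7.91 to 8.25 at 4 h to 7.43 to 7.79 at 24 h (log2 change -0.54, SE 0.12, adjusted p = 0.0105; 0.0669 with the vehicle arrays fitted alone). CCNE2, the cyclin partner of CDK2, had a log2 change of -0.5 (adjusted p = 0.0326). Its adjusted p was 0.0638 to 0.101 without 4 h replicates 1, 2 or 4 or 24 h replicates 1 or 4, and 0.0991 on the reference gene scale.

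Downstream of these, 0 of 40 DNA replication genes were called. A negative sign was seen in 34 of them, against 4636 of all 9285 genes. All 24 h arrays lay below all 4 h arrays in 14, against 617 of 9285. The list's median was -0.26, and these counts were not tested. CDT1, which licenses origins, was 7.76 ± 0.23 at 4 h and 7.2 ± 0.2 at 24 h (log2 change -0.56, adjusted p = 0.0805). ORC6, a subunit of the origin recognition complex, was 8.04 ± 0.1 and 7.46 ± 0.37 (log2 change -0.58, adjusted p = 0.0917). Mitosis genes had 29 of 31 negative signs and a median of -0.2, near the -0.17 of the 9 reference genes, of which 7 had a negative sign. CCNF, a cyclin that targets proteins for degradation, was called lower (log2 change -0.62, adjusted p = 0.0491). CCNF kept its call only without 24 h replicate 1. Without any other array its adjusted p was 0.0507 to 0.151, and on the reference gene scale it was 0.117. HMMR, a spindle protein, was 1 of 2 members with a positive sign, at 8.42 ± 0.19 and 9.1 ± 0.37 (log2 change 0.68, adjusted p = 0.0539).

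RefSeq promoters (build GRCh38.p14) were searched on both strands, from 250 bases before to 50 after each start, for the E2F-type letters TTTGGCGC or TTTCCCGC, for the TEAD-type letters GGAATG and for the CArG box bound by SRF. A window was found for 396 of the 486 called genes. The E2F-type letters stood in 2.27% of all 35116 promoters, in 5 of the 12 promoters of tested G1/S regulators and in 15 of the 44 of tested DNA replication genes. GGAATG stood in 14% of all promoters and in 5 of the 10 promoters of tested YAP and TEAD targets. The CArG box stood in 1.29% of all and in 5 of the 19 promoters of tested SRF and MRTF genes. Windows were found for only 10 of the 15 largest falls and 9 of the 15 largest rises. TNFRSF12A, FOXF1, RDH10 and GEM, and the YAP target CCN1, had none and were not searched. In the 13 promoters of those 10 falls, GGAATG stood in 1 (7.69%) and the E2F-type letters and CArG box in 0. The 13 promoters of those 9 rises gave the same counts. CDC25A, E2F3, AXL and CNN2, called genes with a match before the start, are shown for the letters themselves. Each is given 5′ to 3′ on the strand of the gene, with the match in capitals. Other called genes with a match in the window, among them LATS2, THBS1 and PLD1, are not shown. The genes shown were picked after the values were known, and a match is no evidence of binding.
CDC25A, chr3:48188418-48188527, minus strand: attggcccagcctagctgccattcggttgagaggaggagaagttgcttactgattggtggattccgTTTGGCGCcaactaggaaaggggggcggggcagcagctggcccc
E2F3, chr6:20401769-20401878, plus strand: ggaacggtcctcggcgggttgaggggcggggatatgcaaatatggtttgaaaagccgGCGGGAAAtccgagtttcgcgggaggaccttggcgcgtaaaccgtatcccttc
AXL, chr19:41226505-41226614, plus strand: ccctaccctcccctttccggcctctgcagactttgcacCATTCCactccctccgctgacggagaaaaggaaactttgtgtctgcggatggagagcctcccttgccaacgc
CNN2, chr19:1026498-1026607, plus strand: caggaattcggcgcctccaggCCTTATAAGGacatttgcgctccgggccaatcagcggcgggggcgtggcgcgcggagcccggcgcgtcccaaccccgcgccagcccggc
In E2F3 and AXL the match reads on the opposite strand. It begins 44 bases before the start in CDC25A, 53 in E2F3, 212 in AXL and 89 in CNN2.

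Nucleolar ribosome biogenesis genes had 5 of 30 members called lower (16.7%, against 2.61% of all genes) and 0 higher. Their median was -0.16, against -0.17 for the 9 reference genes. TSR1, a maturation factor of the small subunit, read 9.17, 9.02, 9.07 and 9 at 4 h and 8.88, 8.54, 8.72 and 8.45 at 24 h. The step was small, without overlap (log2 change -0.42, SE 0.09, adjusted p = 0.00887; 0.0987 with the vehicle arrays fitted alone). The other called members were BOP1, NOP14, DDX21 and NCL, with log2 changes from -0.47 to -0.3. This count depended on single arrays: it was 2 without 4 h replicate 1, 1 without 4 h replicate 3, 2 without 24 h replicate 2 and 2 without 24 h replicate 4. BOP1 missed the threshold without 4 h replicate 3 or 24 h replicates 2 or 3 (adjusted p 0.0573 to 0.0676), and NOP14 without 4 h replicates 1 or 3 or 24 h replicates 3 or 4 (0.0567 to 0.0706). DDX21 missed it without any 4 h array or 24 h replicates 2 or 4 (0.059 to 0.154), and NCL without 4 h replicates 1, 2 or 3 or 24 h replicates 1, 2 or 4 (0.0609 to 0.109). On the reference gene scale none of the 5 passed (adjusted p 0.113 to 0.377).

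The rises are given with those that kept their calls first. DDIT4, an inhibitor of mTORC1 that many stresses induce, read 4.58, 4.91, 4.73 and 5.13 at 4 h and 6.37, 6.5, 5.77 and 6.55 at 24 h. The groups were apart, and the rise was 2.76-fold (log2 change 1.46, SE 0.2, adjusted p = 8.87e-05). GDPD1, a phosphodiesterase of lysophospholipids, read 3.18, 3.2, 3.97 and 3.74 and then 4.97, 5.51, 5.93 and 5.24. It had the largest rise, from a dim start (log2 change 1.89, SE 0.31, adjusted p = 9.54e-04). PLD1, which makes phosphatidic acid, read 5.55, 5.86, 5.23 and 5.89 and then 7.22, 6.94, 6.47 and 6.72, again without overlap (log2 change 1.21, SE 0.18, adjusted p = 2.95e-04).

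RFTN2, a lipid raft protein, rose from 4.47 ± 0.24 to 6.07 ± 0.23 (log2 change 1.61, SE 0.31, adjusted p = 0.0035). IRF2, an interferon regulatory factor, read 6.61, 6.38, 6.2 and 6.68 and then 7.47, 7.56, 7.74 and 7.76. Its spread was small against the step (log2 change 1.16, SE 0.15, adjusted p = 6.98e-05). These rises kept their calls without any 1 array.

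Other large rises rested on particular arrays. PPM1K, the phosphatase that switches on branched-chain amino acid breakdown, rose by 1.26 (adjusted p = 0.0104; 0.0517 without 4 h replicate 1). CD9, a tetraspanin, rose by 1.15 (adjusted p = 0.0138; 0.0601 without 4 h replicate 3). SPRY1, a feedback inhibitor of receptor kinase signalling, rose by 1.19 (adjusted p = 0.0213), and its adjusted p was 0.0617 to 0.0857 without 4 h replicate 1, 24 h replicate 2 or 24 h replicate 4. SRGN, a secretory granule proteoglycan, rose by 1.38 (adjusted p = 0.0204), and its adjusted p was 0.0561 to 0.088 without 4 h replicates 1 or 3 or 24 h replicates 2 or 4. FBXO27, an F-box protein for glycoproteins, rose by 1.43 (adjusted p = 0.0378), and its adjusted p was 0.0744 to 0.147 without 4 h replicates 1 or 2 or 24 h replicates 2, 3 or 4. The antisense transcript DLGAP1-AS1 rose by 1.37 (adjusted p = 0.0331), and its adjusted p was 0.0532 to 0.134 without 4 h replicates 1, 2 or 3 or 24 h replicates 2 or 4.

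The unfolded protein response restores folding capacity in the endoplasmic reticulum. Of its 14 tested genes, 2 were called higher (14.3%, against 2.63% of all genes) and 0 lower, 13 had a positive sign, and the median was 0.2. HERPUD1, part of the machinery that degrades misfolded proteins, read 7.21, 7.3, 7.38 and 7.44 at 4 h and 8.28, 8.47, 8.32 and 8.17 at 24 h. The gap between groups was several times their SD (0.1 and 0.13), with a 1.97-fold rise (log2 change 0.98, SE 0.12, adjusted p = 3.89e-05). XBP1, the transcription factor spliced by IRE1, rose by 0.5 (adjusted p = 0.0282). Its adjusted p was 0.0606 to 0.112 without 4 h replicates 1 or 3 or 24 h replicates 2, 3 or 4, and the list had 4 calls without 4 h replicate 4. BAG3, a co-chaperone of HSP70, was the 1 member called of 8 heat shock genes (12.5%, against 5.23% of all genes). It read 6.26, 6.28, 6.23 and 6.58 and then 6.84, 7.1, 6.84 and 7.07, without overlap (log2 change 0.62, SE 0.1, adjusted p = 9.54e-04).

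ATF4 and amino acid response genes had calls in both directions, 2 of 20 higher and 1 lower (15% called, against 5.23% of all genes), with a median of 0.05. DDIT4 was one of the former and PSPH, the last enzyme of serine synthesis, the other (log2 change 0.48, adjusted p = 0.024). SLC7A1, a transporter of cationic amino acids, was called lower (log2 change -0.53, adjusted p = 0.016). PSPH missed the threshold without 4 h replicates 1, 2 or 3 or 24 h replicates 2, 3 or 4 (adjusted p 0.0555 to 0.0733). SLC7A1 missed it without 4 h replicates 1 or 2 or 24 h replicates 2 or 4 (0.0502 to 0.0625), and it was at 0.113 on the reference gene scale. ASNS, asparagine synthetase and a common ATF4 readout, was 6.09 ± 0.27 and 6.4 ± 0.16 (adjusted p = 0.202).

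Cholesterol synthesis genes had a positive sign in 18 of 18 members and a median of 0.32, yet 0 were called. MSMO1, a sterol methyl oxidase, read 8.8, 8.95, 7.91 and 9.21 at 4 h and 9.31, 9.54, 9.41 and 9.47 at 24 h (log2 change 0.71, adjusted p = 0.0901). The groups did not overlap, and 4 h replicate 3 was the lowest. HMGCS1, an early enzyme of the pathway, was also lowest on that array, at 7 against 7.9 to 8.44 on the other 4 h arrays. Over the list, the median ranged from 0.18 to 0.43 when single arrays were left out.

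Several genes often read in BET inhibitor studies were not called in vehicle. MYC read 8.79 ± 0.11 at 4 h and 8.87 ± 0.12 at 24 h (log2 change 0.08, adjusted p = 0.762). HEXIM1, an inhibitor of P-TEFb, was 7.07 ± 0.21 and 7.01 ± 0.27 (adjusted p = 0.818), BRD2 9.89 ± 0.14 and 9.71 ± 0.08 (adjusted p = 0.193), and CCND1 8.98 ± 0.3 and 8.73 ± 0.11 (adjusted p = 0.243). Of the 12 tested genes in that list, 0 were called in either direction. TXNIP, an inhibitor of thioredoxin and glucose uptake, did not pass (8.2 ± 0.44 and 8.01 ± 0.17, adjusted p = 0.557). Its relative ARRDC4 read 6.95, 6.69, 7.04 and 6.64 at 4 h and 5.81, 6.14, 6.14 and 5.79 at 24 h, a fall of 1.81-fold without overlap (log2 change -0.86, SE 0.15, adjusted p = 0.00192).

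The lists of clock genes (11 tested) and of NF-kB target and cytokine genes (8 tested) gave 0 calls. This holds for those lists only, as other genes of inflammation were called, REL and NLRP1 lower and IFI16 and IL10RB higher. None of these calls was steady. Leaving out any 1 of 6 arrays lost REL and IFI16, and any 1 of 5 lost NLRP1 and IL10RB. The largest limma adjusted p was then 0.133 for REL, 0.116 for NLRP1, 0.142 for IFI16 and 0.134 for IL10RB. PER2 was 6.34 ± 0.27 and 5.75 ± 0.29 (adjusted p = 0.137) and PER1 4.98 ± 0.08 and 5.47 ± 0.42 (adjusted p = 0.0986), among 11 clock genes of which 0 were called. IL6 varied more between arrays of 1 group than between the times: it read 7.11, 8.67, 6.37 and 7.97 at 4 h and 5.58, 7.32, 5.13 and 7.19 at 24 h (log2 change -1.23, SE 0.62, adjusted p = 0.236). Its replicates ranked in the same order at both times, an order that the main fit does not use. FOS and EGR1, immediate early transcription factors, overlapped fully between the times (adjusted p = 0.571 and 0.998).

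The remaining lists each had at most 2 members called in a direction. As 5.23% of all genes were called, these counts were not read further. PFKFB3, which makes the activator of phosphofructokinase, was the 1 of 15 glycolysis genes called (log2 change -0.71, adjusted p = 0.0192; 0.0604 without 4 h replicate 2 and 0.0608 without 24 h replicate 3; 0.0654 on the reference gene scale). SLC30A1, a zinc exporter in the metallothionein list, had a log2 change of -0.68 (adjusted p = 0.0162; 0.0531 without 24 h replicate 2 and 0.0739 without 24 h replicate 4; 0.0776 on the reference gene scale). Lysosome and autophagy (25 tested), integrin (11) and NRF2 and pentose phosphate genes (11) gave 0 calls.

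Small nucleolar and Cajal body RNAs guide the chemical modification of ribosomal and spliceosomal RNA. The box H/ACA class had 8 of 39 genes called higher (20.5%) and 0 lower, with a median of 0.58. The box C/D class had 4 of 56 called higher (7.14%), 0 lower and a median of 0.18. Small Cajal body RNAs had 2 of 15 called higher (13.3%), 0 lower and a median of 0.79. Over all genes tested 5.23% were called, and 2.63% were called higher, which is the like share. The box C/D share, which rests on 4 genes, lay closest to it. These classes were taken up after their values were seen. SNORD17 read 6.15, 6.01, 6.33 and 6.76 at 4 h and 7.37, 7.87, 7.83 and 8.25 at 24 h, a clean separation (log2 change 1.52, SE 0.31, adjusted p = 0.00577). SNORA33 read 8.12, 7.88, 8.66 and 7.86 and then 8.7, 9.49, 9.43 and 10.04. Its lowest 24 h array only just exceeded its highest 4 h array (log2 change 1.28, SE 0.28, adjusted p = 0.00912; 0.058 with the vehicle arrays fitted alone). SNORA50A and SNORA21, with log2 changes of 0.75 and 0.64, also kept their calls without any 1 array, though SNORA21 was at 0.0634 when dim genes were kept. SNORA80E and SNORA50C, among the 15 largest rises at 1.27 and 1.15 (adjusted p = 0.0268 and 0.046), did not keep theirs. SNORA80E was lost on leaving out any 1 of 5 arrays (adjusted p up to 0.0935) and SNORA50C any 1 of 7 (up to 0.112).

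The box H/ACA count was 3 without 4 h replicates 1 or 2 or 24 h replicates 2 or 4, 5 without 4 h replicate 3, 4 without 24 h replicate 3, and 12 without 24 h replicate 1. Box C/D counts were 2 without 4 h replicate 2 or 24 h replicate 4 and 7 without 24 h replicate 1. For Cajal body RNAs it was 0 without 4 h replicates 1 or 2 or 24 h replicates 2, 3 or 4, 1 without 4 h replicates 3 or 4, and 3 without 24 h replicate 1.

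The same change over time could be read in arrays that share no sample with the vehicle groups, those of inhibitor-treated cells. The calls were not independent, because the fit gave each gene a single spread over all groups. A gene with a small spread is more easily called in vehicle and in treated cells alike. The shares called at either dose are therefore no separate test of the vehicle calls. Signs and sizes of the treated changes come from the treated arrays. How often signs matched over all genes tested was not counted, so the sign counts below have no background to set them against. At 75 nM, 2340 of 9285 genes were called (25.2%; 13.5% higher and 11.7% lower). Of the 244 vehicle rises, 186 were called higher there (76.2%, and 14.9% of the 1252 called higher), and 238 had the same sign. Of the 242 falls, 189 were called lower (78.1%, and 17.4% of 1088), and 241 had the same sign. The median change of the rises was 0.59 in vehicle and 0.54 at 75 nM, and of the falls -0.56 and -0.48. TNFRSF12A had log2 changes of -2.24 in vehicle, -2.86 at 75 nM and -2.99 at 468 nM, and IRF2 of 1.16, 1.46 and 1.27.

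The test of the difference between the time changes at 75 nM and in vehicle called 3 genes (0.0323%), of which SH3RF2 was the 1 also called in vehicle. SH3RF2, a ubiquitin ligase scaffold, read 7.01, 7, 6.91 and 6.73 in vehicle at 4 h and 6.18, 5.95, 5.98 and 6.15 at 24 h (log2 change -0.85, SE 0.09, adjusted p = 7.19e-06). At 75 nM it was already 6.32 ± 0.19 (SD, n = 5) at 4 h and 6.19 ± 0.05 at 24 h, and the time changes differed by 0.72 (adjusted p = 0.0187). That count of 3 was 1 without 4 h replicates 1 or 2 or 24 h replicate 3, 2 without 24 h replicate 4, and 0 without the filter on dim genes or on the reference gene scale.

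**Figure D3:**
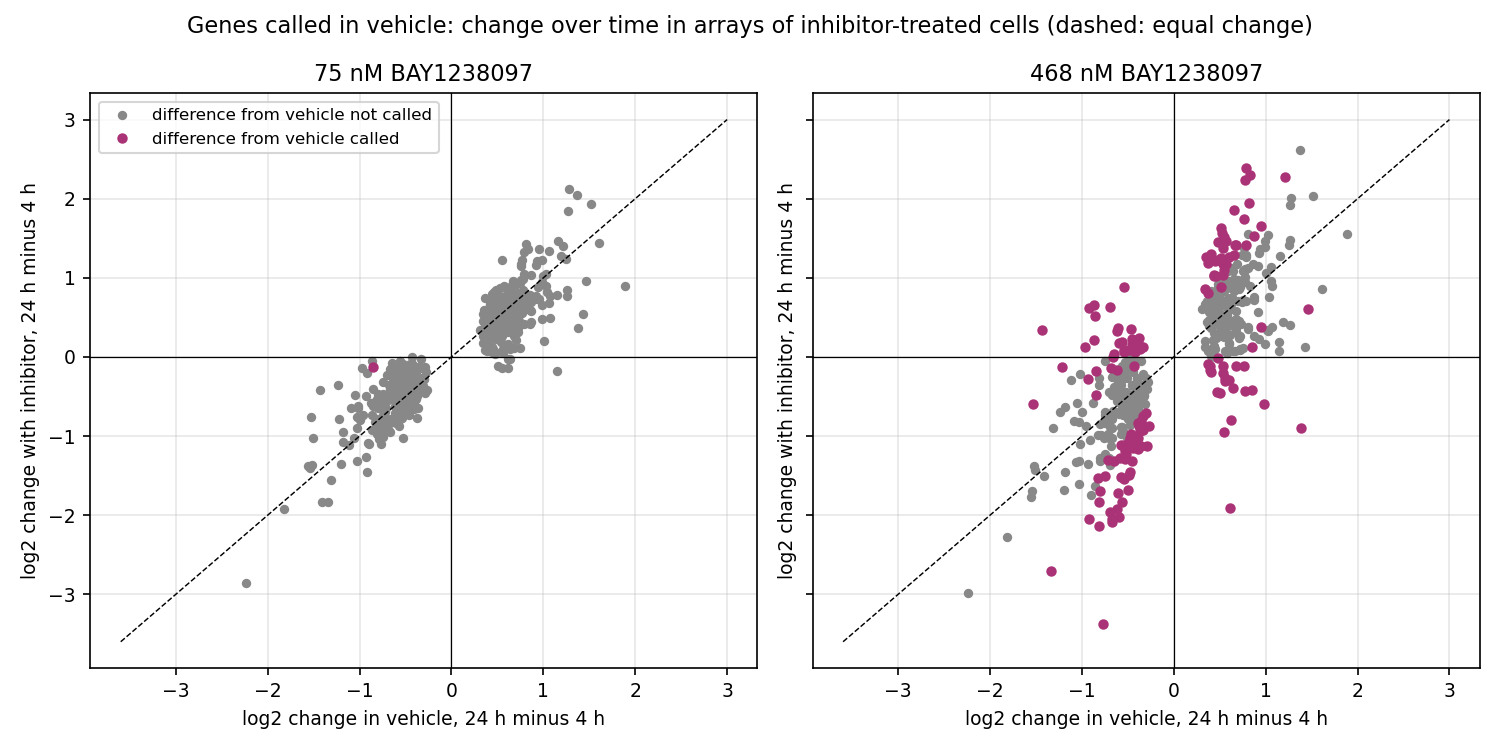
Log2 change from 4 h to 24 h of the 486 genes called in vehicle, in vehicle (horizontal axes) against cells given 75 nM (left) or 468 nM (right) BAY1238097; the dashed line marks equal change and coloured points are genes whose difference from vehicle was called. At 75 nM 1 of the 486 is coloured, and at 468 nM 149 are.

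At 468 nM, 4852 genes were called over time (52.3%; 26.3% higher and 26% lower). Here 176 of the vehicle rises were called higher (72.1%, and 7.22% of 2438) and 185 of the falls lower (76.4%, and 7.66% of 2414), while 9 rises and 7 falls were called in the opposite direction. The time change at 468 nM differed from that in vehicle for 2184 genes (23.5%), among them 149 of the 486 (30.7%), 73 with a more positive and 76 with a more negative change. The vehicle arrays enter both sides of that count, so the count was not read further. The genes below were taken from the vehicle calls, and each difference subtracts that same vehicle change. Where a difference runs against the vehicle change, its size may therefore be too large and its p-value too small.

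HERPUD1 and BAG3 rose in vehicle and were lower at 24 h than at 4 h with 468 nM. HERPUD1 went from 7.33 ± 0.1 to 8.31 ± 0.13 in vehicle, from 7.54 ± 0.1 to 8.02 ± 0.23 at 75 nM and from 7.94 ± 0.15 to 7.34 ± 0.21 at 468 nM. The difference of its time change at 468 nM from vehicle was -1.58 (adjusted p = 2.32e-07). BAG3 went from 6.34 ± 0.16 to 6.96 ± 0.14 in vehicle and from 7.28 ± 0.12 to 6.48 ± 0.15 at 468 nM, a difference of -1.42 (adjusted p = 9.47e-08). ARRDC4 had the opposite pattern, 6.83 ± 0.19 to 5.97 ± 0.2 in vehicle and 7.56 ± 0.21 to 8.08 ± 0.31 at 468 nM, with a difference of 1.38 (adjusted p = 3.19e-05). SRGN rose in vehicle and went from 5.39 ± 0.41 to 4.49 ± 0.31 at 468 nM (difference -2.27, adjusted p = 7.10e-04).

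E2F8 and CDC25A fell over time in vehicle and at both doses. E2F8 went from 8.22 ± 0.15 to 7.45 ± 0.2 in vehicle, from 8.03 ± 0.26 to 6.93 ± 0.18 at 75 nM and from 7.74 ± 0.28 to 4.37 ± 0.29 at 468 nM, where the difference from vehicle was -2.61 (adjusted p = 1.91e-08). CDC25A had time changes of -0.67, -0.83 and -2.05 in the same order, and the last differed from vehicle by -1.38 (adjusted p = 8.34e-07). At 75 nM the difference from vehicle did not pass for E2F8 (-0.33, adjusted p = 0.824) or CDC25A (-0.16, adjusted p = 0.884).

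**Figure D4:**
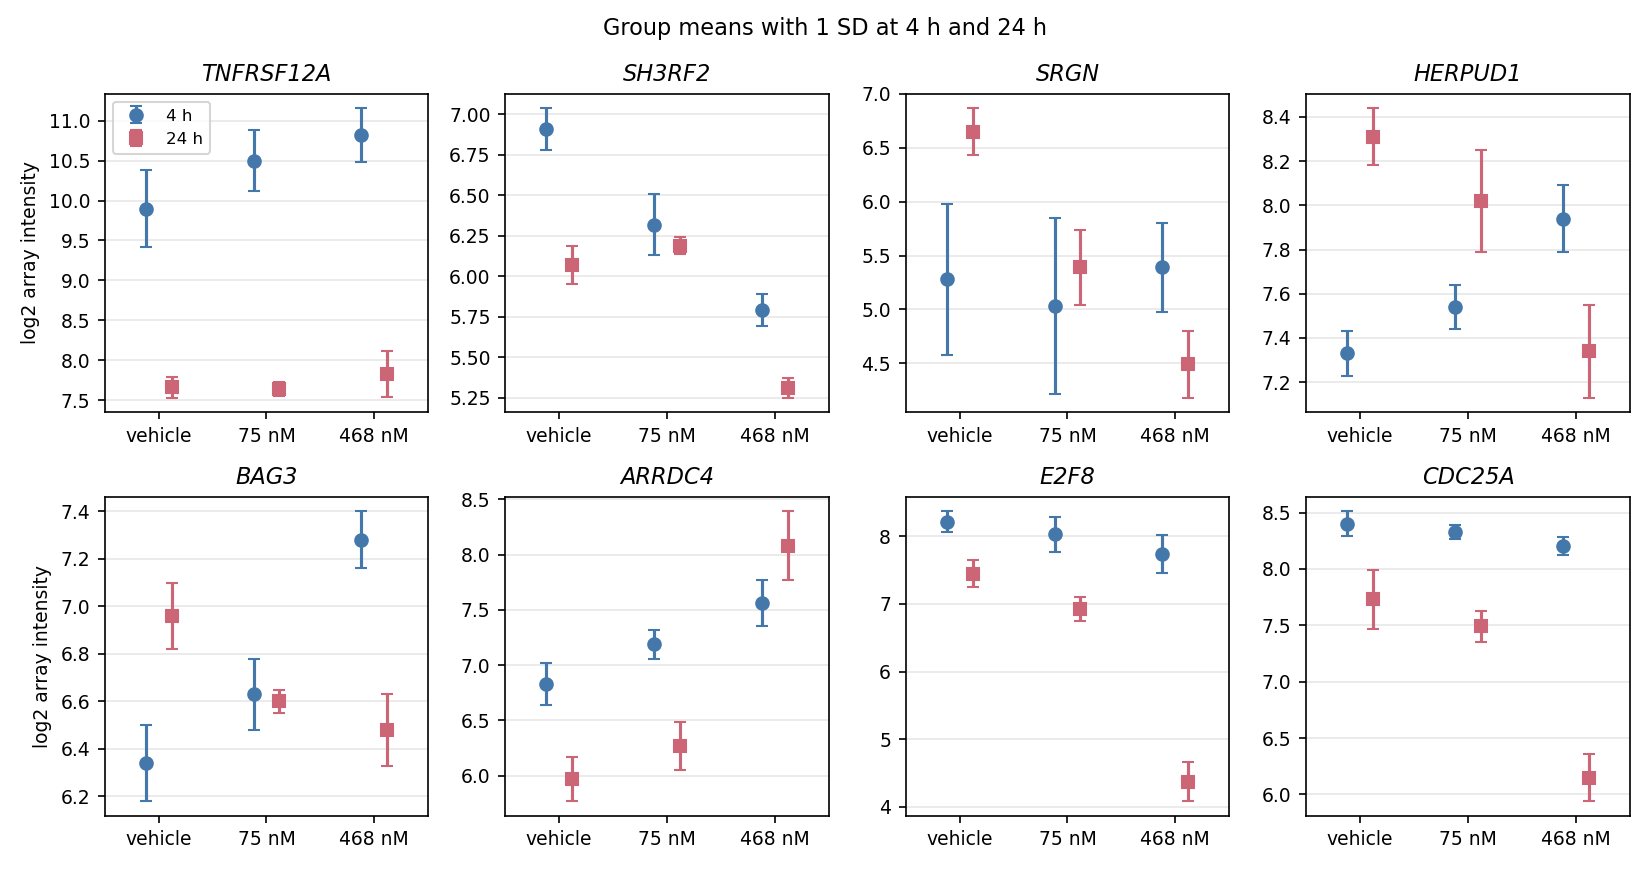
Log2 array intensity (vertical axes, not starting at 0) of 8 genes at 4 h (circles) and 24 h (squares) in vehicle (n = 4) and at 75 nM and 468 nM BAY1238097 (n = 5 each); points are means and bars 1 SD. TNFRSF12A falls to 7.64 to 7.83 in every group, while HERPUD1 and BAG3 rise in vehicle and fall at 468 nM.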

How the data were processed

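Total RNA of 28 CHL-1 samples was measured on Affymetrix arrays. The authors' deposited table gives linear intensity values for 53617 probe sets. They were summarised with RMA, per the submitters' processing notes; its version and the genome build were not given in the sources used here. Intensities carry no read depth, so precision is set by how many arrays there are. Log2 was taken of the deposited intensities. A platform annotation named 1 gene for 23871 probe sets, several for 1842 and none for 27904; symbols were updated through RefSeq gene tables. Of several probe sets the one with the highest mean stood for a gene, and 9285 of 22357 genes above log2 5 on at least 4 of 28 arrays were tested. limma 3.58.1 (R 4.3.3) fitted 6 group means to all 28 arrays (lmFit, contrasts.fit, eBayes), with Benjamini-Hochberg adjustment over all genes tested; called means adjusted p below 0.05. SE is the moderated standard error, SD is over arrays. On data simulated with independent noise, 87% of 100 changes of 1 and 99% of 100 changes of 2 on the log2 scale were recovered. False calls were 8 of 194. That setting held no deviation shared by the genes of an array and no smaller changes, so it does not speak for most calls here. The named genes are the 15 largest called rises and the 15 largest called falls without overlap and with a mean above 5 in at least 1 vehicle group, up to 5 called members per list and direction (or 2 others where fewer than 2 were called), 16 genes of general interest, and up to 5 genes per direction with a different time change under inhibitor; the families and the genes shown from them were added later. Members and lists were chosen with earlier results of these data known. Between the vehicle arrays of a run of title codes, deviations from group means correlated at -0.0302 to 0.0956. The treated arrays were not part of that check, and single genes can differ from it. Alternatives changed the arrays fitted, filter, scaling, probe set rule, prior variance and block, and left out each vehicle array.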

Additional observations from a re-analysis of the deposited data

Results flagged for a closer look

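In 250 groups of 4 arrays of named genes, 15 had an array set apart from the other 3 by more than Dixon's critical value; chance flags about 1 group in 20. At 4 h these were replicate 3 for RDH10 (6.7), GCLM, a glutathione synthesis gene (7.1), SLC30A1 (7.54) and BOP1 (8.15), replicate 2 for HK2, a hexokinase (7.98) and NOP14 (8.72), and replicate 4 for BAG3 (6.58). At 24 h they were replicate 3 for SPRY1 (4.37), PER1 (4.85), H2BC21, a histone gene (5.86) and AXL (7.3), replicate 1 for SNORA50C (6.91) and ACAT2, a sterol synthesis gene (8.08), replicate 2 for E2F8 (7.75) and replicate 4 for CDC25A (7.34).

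Some genes called in vehicle had a time change that differed with inhibitor, by limma's test of that difference. The vehicle change that led to their choice also enters the difference. Where the difference runs against the vehicle change, its size may be too large. At 75 nM this was SH3RF2 (0.72). At 468 nM the difference of the log2 time changes was -2.61 for E2F8, -2.52 for ATP10B, a phospholipid flippase, -2.27 for SRGN, -1.58 for HERPUD1 and -1.5 for CENPW, a centromere protein. It was 1.77 for ZNF667, 1.6 for BBS10, a ciliary chaperonin, 1.54 for ZNF229, 1.52 for MIR570 and 1.48 for BTBD8. Their vehicle calls were not all steady: those of ATP10B, BBS10 and ZNF229, whose vehicle groups overlap, were each lost on leaving out any 1 of 6 arrays, that of CENPW any 1 of 7, MIR570 any 1 of 4 and BTBD8 any 1 of 3. Their adjusted p then reached 0.119 for ATP10B, 0.133 for BBS10, 0.131 for ZNF229, 0.141 for CENPW, 0.102 for MIR570 and 0.0966 for BTBD8.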

How the results depend on the processing

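The number of genes called in vehicle was 486 (244 higher, 242 lower). It became 113 (47 and 66) when only the 8 vehicle arrays were fitted, 103 (39 and 64) with no filter on dim genes and 833 (757 and 76) on the reference gene scale. With the run of title codes as a replicate block it was 908 (490 and 418). The labels do not say what the codes stand for, so this fit was kept as an alternative only. Leaving out 1 vehicle array at a time gave 201 to 548 (82 to 315 higher, 114 to 258 lower). At 75 nM the count over time was 1381 with no filter, and at 468 nM 3074 with the filter at log2 7. The difference between 75 nM and vehicle called 3 genes, 11 with the replicate block, 0 with no filter, 0 on the reference gene scale and 1 to 4 without 1 array. The fit to the vehicle arrays alone gives no value for the treated comparisons. Of 68 named genes called, 26 passed under every alternative and 30 without any 1 array, and none changed sign. The 7 named genes that did were not called. On the reference gene scale DSP became 0.11, CD68 0.08, HEXIM1 0.08, SOX10 0.01 and EGR1 0.14. Without 4 h replicate 1 FBLN1 was -0.05; without 4 h replicate 2 DSP was 0.15; without 4 h replicate 3 EGR1 was 0.07 and HMGCS1 -0.09; without 4 h replicate 4 EGR1 was 0.07. Without 24 h replicate 1 FBLN1 was -0.17 and EGR1 0.35; without 24 h replicate 2 DSP was 0.05; without 24 h replicate 3 DSP was 0.21, CD68 0.01 and HEXIM1 0.04. The opposite ends of these ranges were -0.25 for DSP (without 24 h replicate 1), 0.27 for FBLN1 and -0.19 for CD68 (without 24 h replicate 4), -0.25 for EGR1 (without 24 h replicate 3) and 0.39 for HMGCS1 (without 4 h replicate 4). The cause of these changes was not tested.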

Other observations

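Some gene families that were not in the lists are given as values; they were picked after the data were seen. Genes of the mitochondrial respiratory chain complex I had 3 of 28 members called higher (10.7%, against 2.63% of all genes) and 0 lower. They had 27 positive signs and a median of 0.25. Mitochondrial ribosomal proteins had 3 of 67 called higher, 0 lower and a median of 0.15. That is 4.48%, against 2.63% of all genes called higher and 5.23% called in either direction. The count was 1 without 4 h replicate 3 and 5 without 4 h replicate 4. MRPS14 rose by 0.71 (limma adjusted p = 0.00998). Cytosolic ribosomal proteins had 0 of 49 called and a median of -0.02, which was 0.12 on the reference gene scale. The splicing factors SRSF5 and SRSF6 fell by 0.62 and 0.59 (adjusted p = 0.00313 and 0.00577). They were 2 of 9 tested in the family (22.2%, against 2.61% of all genes called lower). EXO1, a nuclease of mismatch repair and recombination, fell by 0.56 (adjusted p = 0.0109), 1 of 6 called lower of 41 recombination, Fanconi and checkpoint genes, of which 1 was called higher. Of the 41, 17.1% were called in either direction, against 5.23% of all genes. The lower count was 1 without 4 h replicates 1 or 3 or 24 h replicate 4, 2 without 24 h replicate 3 and 3 without 4 h replicate 2 or 24 h replicate 2. In the YPEL family only 3 genes were tested, of which 2 were called higher (66.7%, against 2.63% of all genes) and 0 lower. Both were dim: YPEL2 rose by 1.25 (adjusted p = 0.0122) and YPEL5 by 0.66 (adjusted p = 0.0107). The count was 1 without 4 h replicate 3 or 24 h replicate 4, where the adjusted p of YPEL2 rose to at most 0.0599, and 0 with only the 8 vehicle arrays or with no filter on dim genes. MRPS14, SRSF5, SRSF6, EXO1 and YPEL5 kept their calls without any 1 array; with the vehicle arrays fitted alone, only EXO1 did (0.0478; 0.0581 to 0.0949 for MRPS14, SRSF5 and YPEL5, and 0.058 for SRSF6). With dim genes kept, EXO1 was at 0.0608, MRPS14 at 0.0509 and YPEL5 at 0.0563. The complex I count was 0 without 4 h replicate 1 or 24 h replicate 4, 1 without 4 h replicates 2 or 3 and 5 without 24 h replicate 1. Of 268 zinc finger genes of the ZNF series, 2 were called higher and 6 lower (2.99%, against 5.23% of all genes). The lower count was 3 without 4 h replicate 1 or 24 h replicate 3, 2 without 4 h replicates 2 or 3 or 24 h replicate 2, 1 without 24 h replicate 4 and 10 without 24 h replicate 1, and the higher count ran from 0 to 3.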
